A study of Mus musculus with 186 samples.

Results

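Chemokines and cytokines are secreted or membrane-bound proteins with which epithelial cells address immune cells and each other, and 10 of their genes were examined in sorted basal and luminal cells of the adult mouse mammary gland: Cxcl14, Il17b, Cxcl1, Cxcl2, Cxcl12, Cxcl15, Cxcl16, Il33, Il34 and Csf1. The genes are a list of names drawn up with earlier results of these data known, so their levels are a description, and all 10 were found among the 27179 gene identifiers of the deposited count files. The files used here hold 186 single cells from the mammary glands of 8 adult FVB/NJ mice with no treatment, 96 sorted as basal and 90 as luminal; other adult basal cells of the study are not analysed here. In the study's gating, cells without the blood and endothelial markers Ter119, CD31 and CD45 were sorted as CD24+ with high CD29 for basal and CD24+ with low CD29 for luminal cells, captured singly on a Fluidigm C1 chip and sequenced from cDNA of polyadenylated RNA. PCR plate A held basal cells only, plate C luminal cells only and plate B both, so plate B is the only plate the populations share, and no label ties a cell to a mouse. Each population was therefore treated as 1 sample, and no test between populations was made. All intervals given are 95% intervals and cover counting error only, and those on shares of cells count cells of 1 sample, which are no replicates.

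Chemokines of the CXC family act through seven-pass receptors on leukocytes and other cells. Cxcl1 and Cxcl2 are neutrophil attractants and classical targets of the transcription factor NF-kB, Cxcl12 is the ligand of Cxcr4 and is usually made by stromal and endothelial cells, and Cxcl16 is a membrane-anchored chemokine that binds Cxcr6 and is shed by ADAM proteases. Il33 encodes a nuclear alarmin released from damaged barrier epithelia, Il17b a member of the IL-17 family that signals through Il17rb, and Csf1 and Il34 the ligands of the macrophage receptor Csf1r. In the mammary gland Csf1 is known for recruiting the macrophages that accompany duct growth.

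After the study's thresholds on reads and detected genes, 72 basal cells (50 of plate A and 22 of plate B) and 76 luminal cells (24 of plate B and 52 of plate C) remained. The total count per cell ran from 69933 to 1968860 in basal cells (median 1189250) and from 105636 to 3226961 in luminal cells (median 1459610). At an equal 50000 reads per cell, the median basal cell of plate B held 1568.5 detected genes and that of plate A 2902, against 3195 (plate B) and 3434.5 (plate C) for luminal cells. Of 10 basal markers (such as Krt14, Krt5 and Acta2) the median basal cell held 9 at 10 CPM or more (reads of the gene scaled to 1000000 reads of the cell), and of 10 luminal markers (such as Krt8, Krt18 and Epcam) the median luminal cell held 9. In 69 of 72 basal cells basal markers outnumbered luminal ones, and in 75 of 76 luminal cells the reverse held. These counts leave markers of other cell types aside. Basal cell 72, with 3 basal, 1 luminal and 13 endothelial markers, counted with its label. So did luminal cell 54, with 0 basal, 2 luminal and 17 fibroblast markers. Several cells stood apart from their labels. The cell labelled basal 90 held 0 basal and 7 luminal markers. Basal cell 13 held 8 of each list, basal cell 20 held 10 basal and 9 luminal markers, and luminal cell 63 held 9 basal and 8 luminal markers. Luminal cell 25 held 17 of 20 endothelial and 14 of 20 pericyte markers. Counting basal cell 13 and luminal cells 25 and 63, 20 basal and 12 luminal cells held at least 4 of the 20 endothelial, fibroblast, pericyte or immune markers at 10 CPM or more. The median basal cell already held 2 of the fibroblast markers, so this rule also takes in otherwise ordinary basal cells. No cell reached 4 immune markers, and the summed level of the immune list did not exceed 91.1 CPM in any basal and 472 CPM in any luminal cell. Reads were found for 13 of the 20 immune markers in basal cells and for 17 of 20 in luminal cells.

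The CXC genes Cxcl15, Cxcl1 and Cxcl2 are neighbours on chromosome 5, and the sequences before their start sites are shown because the 3 genes differed in the cells that held them. In the coordinates of the files (mm10), Cxcl15 spans 90794534 to 90803067, Cxcl1 90891245 to 90893121 and Cxcl2 90903899 to 90905938, and the start of Cxcl2 lies 12.654 kb after that of Cxcl1. RefSeq promoter sequences (build GRCm38.p6) were matched for 7 of the 10 genes. The 250 bases before each start are printed 5′ to 3′ on the plus strand, at chr5:90890995-90891244 for Cxcl1, chr5:90903649-90903898 for Cxcl2 and chr5:90794284-90794533 for Cxcl15. Capitals mark matches on either strand to the NF-kB consensus or to the letters TATAAA.
Cxcl1: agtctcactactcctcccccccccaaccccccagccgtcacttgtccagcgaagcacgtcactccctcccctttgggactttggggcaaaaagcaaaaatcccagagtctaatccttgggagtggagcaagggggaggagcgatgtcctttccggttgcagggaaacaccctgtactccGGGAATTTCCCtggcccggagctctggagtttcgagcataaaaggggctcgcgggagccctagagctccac
Cxcl2: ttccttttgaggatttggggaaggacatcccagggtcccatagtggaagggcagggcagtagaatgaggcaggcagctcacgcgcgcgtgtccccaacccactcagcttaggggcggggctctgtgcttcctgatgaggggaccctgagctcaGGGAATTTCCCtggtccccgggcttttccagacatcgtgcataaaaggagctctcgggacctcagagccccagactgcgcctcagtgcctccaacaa
Cxcl15: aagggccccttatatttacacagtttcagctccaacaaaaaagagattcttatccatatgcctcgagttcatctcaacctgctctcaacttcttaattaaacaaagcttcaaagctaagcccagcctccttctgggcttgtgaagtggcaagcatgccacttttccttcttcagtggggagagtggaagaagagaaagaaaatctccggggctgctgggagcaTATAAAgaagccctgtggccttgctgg
The NF-kB consensus was found in 3.9% of 32851 promoters of the same length, and TATAAA in 12.4%. Cxcl1 and Cxcl2 each held the consensus in an overlapping match on both strands, starting at position -71 from the Cxcl1 start and at -97 from the Cxcl2 start. The longest stretch the 2 upstream sequences shared had 14 bases, began with this match and was found in no other promoter of the table. Csf1 held a match on the minus strand of its own promoter, from position -154 to -145. The sequence before Cxcl15 held no NF-kB match and held TATAAA at position -27, and both listed starts of Il33 were preceded by TATAAA, at -203 and -29. These are matches of letters, not sites of binding.

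Levels were first compared over the summed counts of each population, with the log2 ratio of luminal over basal cells taken after adding 1 CPM. Cxcl14, Il17b, Cxcl12 and Csf1 were at least 2-fold higher in basal cells, and Il33, Cxcl15 and Cxcl2 were at least 2-fold higher in luminal cells, while Cxcl1, Cxcl16 and Il34 lay under 2-fold. For Il34, whose levels were low, this came from the added 1 CPM. Without it the luminal level was 3.19-fold higher (2.14 to 4.88). Of the 14773 genes that passed the filter on low values, 18.3% were at least 2-fold higher in basal and 28.4% in luminal cells, beside 4 and 3 of the 10 genes here. The median log2 ratio of the 10 genes was -0.15 and that of all 14773 genes was 0.18. All 10 genes passed the filter. Cxcl16 changed direction between plates, and for Cxcl2, Cxcl12, Cxcl15 and Il34 the ratio rested on few cells, as described for each gene.

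**Figure D1:**
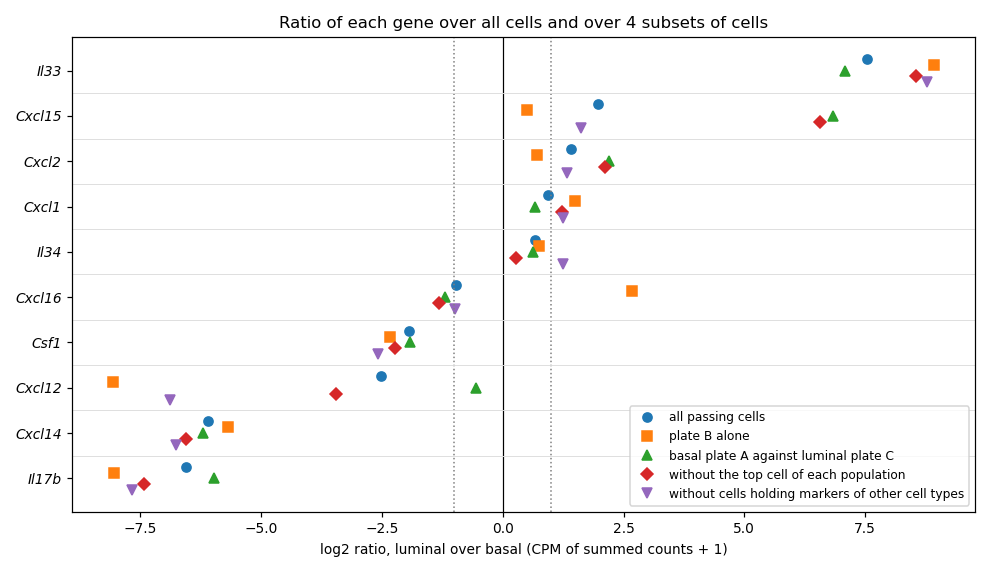
Log2 ratio of each gene, luminal over basal, from CPM of summed counts plus 1, over all passing cells and over 4 subsets; dotted lines mark 2-fold. Il17b, Cxcl14 and Csf1 stay left of the lower line and Il33 right of the upper line in every subset, Cxcl16 lies at 2.67 on plate B and at -0.96 over all cells, and Cxcl12 runs from -8.06 to -0.56.

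Per kilobase of the gene length in the files (RPKM, of summed counts), Il17b had the highest level of the 10 genes in basal cells at 288, followed by Cxcl1 at 188, Cxcl14 at 53.7, Csf1 at 27.1, Cxcl16 at 25.1, Cxcl12 at 20.9, Cxcl15 at 13.9, Cxcl2 at 8.83, Il33 at 0.566 and Il34 at 0.20. Il17b thereby stood above 98.4% of the genes past the filter in basal cells. In luminal cells the order was Cxcl1 at 361 RPKM, Il33 at 177, Cxcl15 at 56.0, Cxcl2 at 25.1, Cxcl16 at 12.7, Csf1 at 6.87, Cxcl12 at 3.54, Il17b at 1.62, Il34 at 0.639 and Cxcl14 at 0.245. Cxcl1 stood above 98.8% of genes in luminal cells, and it was the only one of the 10 above 100 RPKM in both populations. With counts alone and no length, Il33 passed Cxcl1 in luminal cells (461 against 345 CPM) and Cxcl12 passed Cxcl14 in basal cells (150 against 98.0 CPM). Every gene was at 0 in some cells of each population, so the ranges of neighbours in these orders overlapped, and the order of neighbours was not tested.

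Cxcl14, a CXC chemokine of epithelia, was read in most basal cells and in hardly any luminal cell. Over the 72 basal cells it ran from 0 to 756 CPM with a median of 71.9 CPM, and 29 cells reached 100 CPM. Over the 76 luminal cells the median was 0 and the highest cell had 40.8 CPM. Summed over cells the level was 98.0 CPM (95.9 to 100.2) in the basal and 0.447 CPM (0.333 to 0.588) in the luminal population, which gives a log2 ratio of -6.10. On plate B, which holds both populations, 1421 basal reads faced 0 luminal reads. Against a floor of 3 counts over the luminal cells of that plate, the level was 623-fold higher in basal cells. The exact interval of the fold began at 506. At 50000 reads per cell, 57 of 72 basal cells (79.2%, exact interval 68.0 to 87.8%) and 1 of 76 luminal cells (1.32%, 0.0333 to 7.11%) held a read. With all reads the shares were 90.3% and 2.63%. Of the 51 luminal reads, 50 came from luminal cell 63, the cell with 9 basal markers. Among basal cells Cxcl14 was the most evenly spread of the genes: its top cell held 6.14% of the reads, and 41 cells were needed to reach 90% of them. The basal plates still differed, with 122 CPM and a read in 90.0% of cells on plate A against 50.7 CPM and 54.5% on plate B. The gene lies on chromosome 13 at 56288643 to 56296811.

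Il17b was also read in basal cells and almost absent from luminal ones, but in fewer cells and at a higher level in them. Basal cells ran from 0 to 2733 CPM with a median of 60.3 CPM, and the cells with a read had a median of 205 CPM. Luminal cells had a median of 0 and a maximum of 104 CPM. The basal sum came to 199 CPM (196 to 202) and the luminal sum to 1.12 CPM (0.936 to 1.33), with a log2 ratio of -6.56. Of the 128 luminal reads, 127 again came from luminal cell 63, and without each population's top cell the ratio was -7.43. On plate B 7366 basal reads faced 0 luminal reads, 3230-fold higher against the same floor, with an interval that began at 2626. A read was found at equal depth in 42 of 72 basal cells (58.3%, 46.1 to 69.8%) and in 1 luminal cell (1.32%). The basal plates differed in how the reads were spread. Plate A held a read in 70.0% of cells with a median of 116 CPM, while plate B held one in 31.8% with a median of 0.596 CPM, yet its sum was higher (263 against 168 CPM) because basal cells 69, 66 and 81 of plate B held 38.6% of all basal reads.

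Csf1, the growth factor of macrophages, was 3.94-fold higher in basal cells (3.79 to 4.09). Basal cells ran from 0 to 1628 CPM with a median of 9.04 CPM, and luminal cells from 0 to 1037 CPM with a median of 0. The sums stood at 120 and 30.4 CPM, a log2 ratio of -1.94. This ratio was -2.34 on plate B and -1.92 for plate A against plate C. Within basal cells the plates stood apart, with 162 CPM and a read in 62.0% of cells on plate A against 35.7 CPM and 13.6% on plate B. The basal cells of plate B also held fewer detected genes, and the part of that in the gap between plates was not tested. A read was found in 47.2% of basal cells (35.3 to 59.4%) and 11.8% of luminal cells (5.56 to 21.3%). The luminal sum rested on few cells: luminal cells 50, 54 and 29 held 80.4% of it, and 5 cells held 90%. Luminal cell 54 held 17 of 20 fibroblast and 2 of 10 luminal markers, while luminal cell 50 held 9 luminal markers and 0 fibroblast markers.

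Cxcl12 was higher in basal cells in the sums, at 150 CPM (147 to 152) against 25.3 CPM (24.4 to 26.3), a log2 ratio of -2.52. The size of that difference depended on a handful of cells in both populations. Basal cells ran from 0 to 1882 CPM with a median of 1.27 CPM, and 3 cells of plate B, basal 92, 95 and 94, held 69.8% of the basal reads. Luminal cells ran from 0 to 1500 CPM with a median of 0, and luminal cells 71 and 55 held 1869 and 754 of the 2891 reads. Luminal cell 71 carried 14 endothelial, 14 pericyte and 8 fibroblast markers and luminal cell 55 carried 18 endothelial and 17 fibroblast markers, each of 20, beside 10 and 9 luminal markers. The 12 luminal cells with at least 4 markers of another cell type held 99.3% of the luminal Cxcl12 reads, and without them the luminal level was 0.213 CPM. In basal cells the 20 such cells held 29.3% of the reads, and the level without them was 143 CPM. Basal cells 92 and 94 carried 0 endothelial markers and 8 and 10 basal markers, whereas basal cell 95 carried 9 endothelial and 5 pericyte markers. With the cells that carry other markers left out in both populations the ratio was -6.89. Between plates the ratio was -8.06 on plate B and -0.56 for plate A against plate C. In the shares, a read was found in 38.9% of basal cells (27.6 to 51.1%) and 11.8% of luminal cells (5.56 to 21.3%), with 42.0% and 31.8% on basal plates A and B. Cxcl12 lies on chromosome 6 at 117168535 to 117181368.

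Il33 was the most luminal of the genes. Luminal cells ran from 0 to 3230 CPM with a median of 0.872 CPM, and 26 of 76 reached 100 CPM and 11 reached 1000 CPM. Basal cells had a median of 0, and 1 of 72 reached 100 CPM. The summed level was 461 CPM in luminal cells (457 to 465) and 1.47 CPM in basal cells (1.23 to 1.76), a log2 ratio of 7.55. Of the 124 basal reads 119 came from basal cell 13, the cell with 8 basal and 8 luminal markers. On plate B 3 basal reads faced 19831 luminal reads, a 5025-fold difference with an interval of 1719 to 24371. A read was found at 50000 reads in 40.8% of luminal cells (29.6 to 52.7%) and 1.39% of basal cells (0.0352 to 7.50%), with 37.5% and 42.3% on luminal plates B and C. Of the 42 luminal cells with any read, 26 stood at 100 CPM or more, and the median of the 42 was 366 CPM. Its top luminal cell held 15.8% of the reads and 17 cells held 90%. Il33 lies on chromosome 19 at 29925113 to 29960718.

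Cxcl15, a neutrophil attractant first known from lung, was read in many luminal cells and in the population labelled basal through 1 cell. Luminal cells ran from 0 to 1337 CPM with a median of 6.92 CPM, and 24 of 76 reached 100 CPM. Basal cells had a median of 0, with 3 of 72 cells holding any read. Of the 2485 reads of cells labelled basal, 2483 came from the cell labelled basal 90, which held no basal marker, and the other 2 cells held 1 read each. The summed levels were 119 CPM in luminal cells (117 to 121) and 29.5 CPM in cells labelled basal (28.4 to 30.7), a log2 ratio of 1.98. With the top cell of each population left out the ratio was 6.57, and without the cells that stood apart 6.85. On plate B, where basal 90 sits, the log2 ratio was 0.50, a luminal level 1.42-fold higher. For plate A against plate C 1 basal read faced 8951 luminal reads, a 6503-fold difference with an interval of 1167 to 256889. At 50000 reads a read was found in 44.7% of luminal cells (33.3 to 56.6%) and, in basal 90 alone, 1.39% of basal cells (0.0352 to 7.50%).

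Cxcl1 was high in part of the cells of both populations. Luminal cells ran from 0 to 4184 CPM with a median of 13.5 CPM, and basal cells from 0 to 3138 CPM with a median of 2.95 CPM, so the populations overlapped, with luminal cells 54 (3371 CPM) and 9 above every basal cell. The summed level was 345 CPM in luminal cells (341 to 348) and 179 CPM in basal cells (176 to 182), a log2 ratio of 0.94. On plate B the ratio was 1.5 and for plate A against plate C 0.67. At 50000 reads a read was found in 50.0% of luminal cells (38.3 to 61.7%) and 36.1% of basal cells (25.1 to 48.3%). With all reads the shares were 67.1% and 65.3%. The difference lay in the number of high cells, with 28 luminal and 14 basal cells at 100 CPM or more. Cells with markers of other types held 50.9% of the basal and 32.7% of the luminal reads. The top basal cell, basal 56, carried 18 of 20 fibroblast markers beside 7 basal ones, and the top luminal cell, luminal 54, carried 17 fibroblast and 2 luminal markers, whereas luminal cell 9, with 4184 CPM, carried 0 fibroblast and 8 luminal markers. Without such cells the ratio was 1.24.

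Cxcl2, the neighbour of Cxcl1, was read in far fewer cells. It was found with all reads in 18 of 76 luminal and 4 of 72 basal cells, and at 50000 reads in 13.2% (6.49 to 22.9%) and 5.56% (1.53 to 13.6%). Luminal cells reached 1195 CPM in luminal cell 43, which held 38.1% of the luminal reads, and basal cells 367 CPM in basal cell 73, which held 67.9% of the basal reads. The summed levels were 27.2 and 9.56 CPM, a log2 ratio of 1.42. Without luminal cell 43 the ratio was 0.77, under 2-fold, and without basal cell 73 it was 2.77. On plate B the ratio was 0.72, under 2-fold, and for plate A against plate C it was 2.19.

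Cxcl16 had no fixed direction. Over all cells it was higher in basal cells, 61.4 against 31.1 CPM, a log2 ratio of -0.96. Basal cells had 91.4 CPM in plate A but 1.39 CPM in plate B, whose basal cells also held fewer detected genes, while luminal cells had 14.2 CPM in plate B and 39.1 CPM in plate C. On plate B alone it was therefore 10.2-fold higher in luminal cells (7.37 to 14.5), and for plate A against plate C 2.33-fold higher in basal cells (2.23 to 2.44). Scaling moved the median ratio of all genes from 0.18 to 0.03 with TMM factors, and Cxcl16 then stood at -1.18, past 2-fold. The shares stood at 23.6% of basal (14.4 to 35.1%) and 21.1% of luminal cells (12.5 to 31.9%). Basal cells reached 1157 CPM in basal cell 2 and luminal cells 1244 CPM in luminal cell 50, and medians were 0 in both populations. Luminal cell 50 was also the top luminal cell for Csf1.

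Il34, the other ligand of Csf1r, was hardly read. Only 2 basal and 4 luminal cells held any read, with 30 of 31 basal reads in basal cell 48 and 80.6% of 134 luminal reads in luminal cell 32. The summed levels were 0.369 CPM (0.250 to 0.523) and 1.17 CPM (0.984 to 1.39), and without the top cells 0.0121 and 0.230 CPM. Both sums thus rested on single cells.

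**Figure D2:**
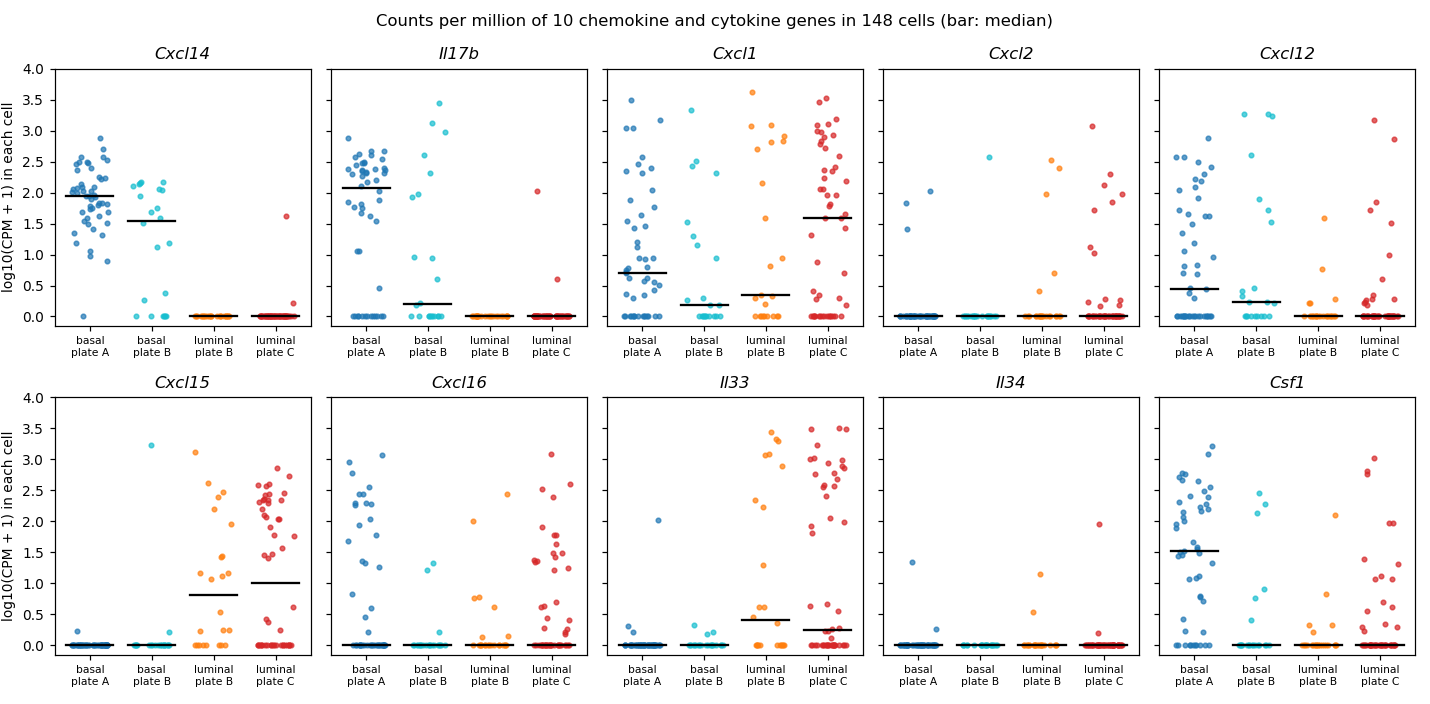
Level of each gene in every passing cell, as log10 of CPM plus 1, by population and plate; black bars are medians. Cxcl14 and Il17b lie at 0 in nearly all luminal cells, Il33 and Cxcl15 at 0 in nearly all basal cells except basal cells 13 and 90, and Cxcl1 runs from 0 to beyond 1000 CPM in both populations.

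Dependence on single cells was described by the part of a gene's reads in its top cell. In the population with the higher sum, the top cell held 6.14% of the reads of Cxcl14, 15.5% of Il17b, 18.3% of Csf1, 21.7% of Cxcl16 and 28.6% of Cxcl12 in basal cells, and 15.2% of Cxcl1, 15.8% of Il33, 20.7% of Cxcl15, 38.1% of Cxcl2 and 80.6% of Il34 in luminal cells. In the other population a single cell held 98.0% and 99.2% of the luminal reads of Cxcl14 and Il17b and 99.9%, 96.0% and 96.8% of the basal reads of Cxcl15, Il33 and Il34. Counting cells equally by CPM instead of reads, the top cell's part was 9.45% for Cxcl14 and 10.6% for Il33. The median basal cell held reads of 3 of the 10 at 50000 reads and the median luminal cell of 2, with 3 basal and 8 luminal cells holding none.

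**Figure D3:**
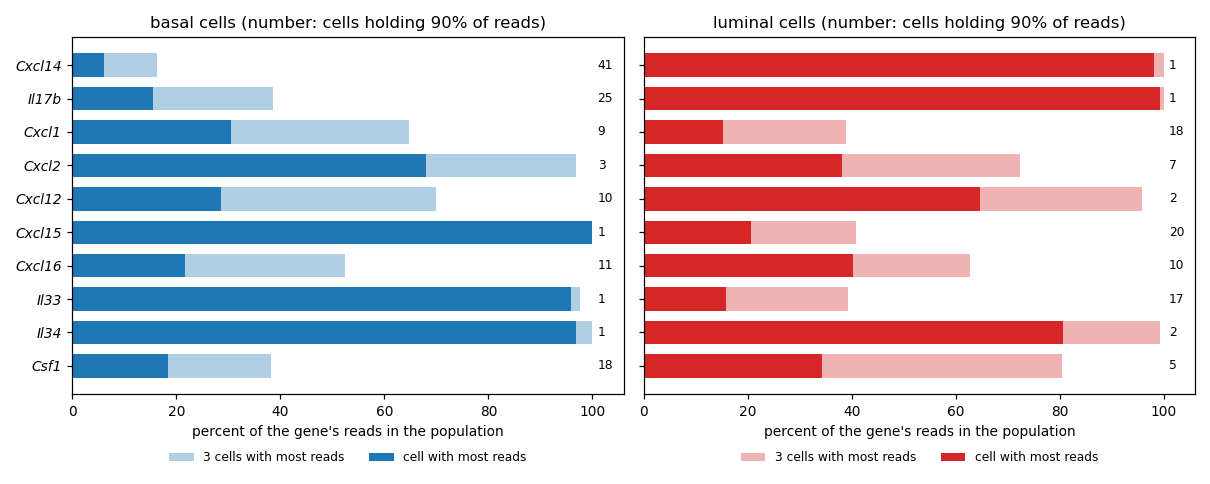
Percent of each gene's reads that lie in the cell with most reads (dark) and in the 3 cells with most reads (light), with the number of cells that hold 90% of the reads at the right. Cxcl14 needs 41 basal cells and Cxcl15 20 luminal cells to reach 90%, while 1 cell suffices for Cxcl14 and Il17b in luminal cells and for Cxcl15, Il33 and Il34 in basal cells.

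**Figure D4:**
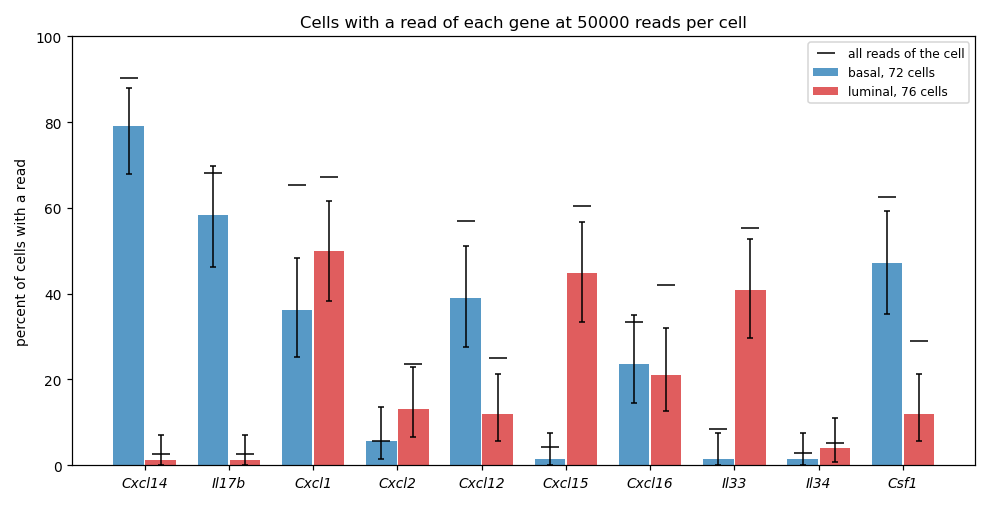
Percent of cells with a read of each gene after thinning each cell to 50000 reads (bars, with exact 95% binomial intervals) and with all reads (dashes), for 72 basal and 76 luminal cells. Cxcl14 stands at 79.2% of basal and 1.32% of luminal cells, Il33 at 1.39% and 40.8%, and Cxcl16 at 23.6% and 21.1%.

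Across the cells of 1 population, levels were set beside the mean log2 level of lists of lineage markers as Spearman's rho, which is a description without a test, since the cells share plates and chemistry and come from an unknown split of mice. With the markers of luminal progenitors, Cxcl15 and Cxcl1 lay at opposite ends among the 76 luminal cells. Cxcl15 had a rho of 0.45 with 10 markers of mature, hormone-sensing luminal cells and -0.33 with 10 markers of luminal progenitors, and it correlated positively with all 10 of the former, among them Esr1 (0.43) and Prlr (0.43), the receptors for estrogen and prolactin. On plate C the rho with the hormone-sensing list was 0.61, but on plate B it was 0.06. Cxcl1 had a rho of 0.47 with the progenitor markers, positive for all 10, among them Kit (0.48) and Aldh1a3 (0.42), and -0.02 with the hormone-sensing markers, and the former was 0.56 within plate B and 0.43 within plate C. Il33 had a rho of -0.29 with the progenitor list and 0.10 with the hormone-sensing list, and Cxcl16 of 0.31 and -0.20. Among basal cells Cxcl14 had the highest rho with the 10 basal markers, 0.46, positive for all 10, with 0.29 for plate A and 0.52 for plate B taken alone. Basal 90, with 0 basal markers, and basal cells 17, 71, 72 and 82, with markers of other types, held no Cxcl14 read. Of the 20 basal cells with such markers 16 held a read. The part of these cells in the rho was not tested. Csf1 and Cxcl16 followed with a rho of 0.32 and 0.36 with the basal markers, but for Csf1 the rho was 0.05 on plate A. Both also had positive values with the list of 10 luminal markers in these basal cells. For Cxcl16 this was 0.33, positive for all 10. For Csf1 it was 0.26, positive for only 4 of the 10, and -0.14 on plate B alone. Il17b and Cxcl12 showed little relation to basal markers, at 0.08 and 0.11.

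Levels of Cxcl1 were also set beside a list named NF-kB feedback genes, with 15 targets, regulators and subunits of NF-kB. In luminal cells the rho with the list was 0.56, positive for 14 of the 15, with 0.50 for Nfkbiz and 0.43 for Nfkbia, both of the IkB family. It was 0.47 for plate B and 0.60 for plate C taken alone. In basal cells it was 0.43 (0.37 within plate A, 0.46 within plate B). The other genes with a read in at least 15 cells of a population at 50000 reads had values between -0.10 and 0.22, among them Csf1 in basal cells at 0.04. Below that number of cells, Csf1 and Cxcl2 had values of 0.30 and 0.23 in luminal cells, where 9 and 10 cells held a read.

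**Figure D5:**
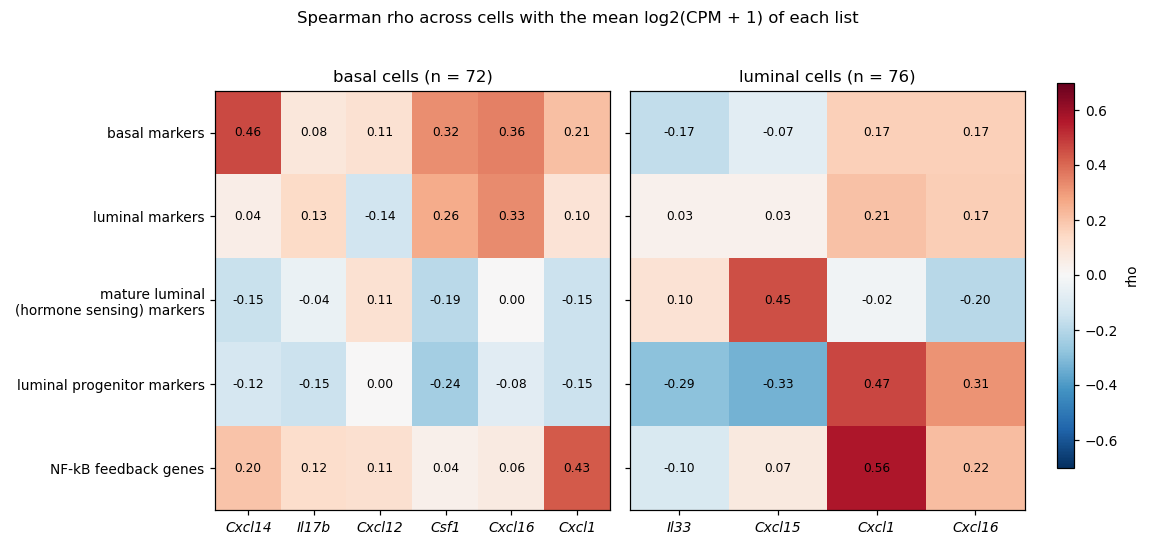
Spearman's rho across cells between the level of a gene (columns, genes with a read in at least 15 cells at 50000 reads) and the mean log2(CPM + 1) of a list (rows), in basal and luminal cells. Cxcl15 and Cxcl1 have opposite signs with the progenitor list in luminal cells, and Cxcl1 has the highest value with the NF-kB list in both populations.

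The members themselves were only loosely related across cells. The pair Cxcl1 and Cxcl2, whose upstream sequences share the 14 bases shown before, had a rho of 0.31 in luminal cells, and 9 of the 10 luminal cells with Cxcl2 at 50000 reads also held Cxcl1, which is 90.0% of the Cxcl2 cells and 23.7% of the 38 Cxcl1 cells. The product of the shares of cells with each gene would give 5 cells. Cxcl15, the neighbour of these 2 genes, had a rho of -0.20 with Cxcl1 in luminal cells, and 15 cells held both, against 17 from the product. Cxcl14 and Il17b, the 2 basal genes, were found together in 37 of 72 basal cells, against 33.25 from the product. This is 64.9% of the Cxcl14 cells and 88.1% of the Il17b cells, but the levels of the 2 genes had a rho of 0.06. Il33 and Cxcl15 were found together in 16 luminal cells, against 13.9 from the product, which is 51.6% and 47.1% of each, with a rho of 0.13. In basal cells the rho of all other pairs with at least 9 cells each ran from -0.16 to 0.22.

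The genes most like each member were taken by rho over the cells of its higher population, among genes read in at least 15 of those cells at 50000 reads. They were the highest of 4365 or 5960 values, and how high the top of so many unrelated genes would reach was not tested. For Cxcl14 these were Myh11 (0.49), a smooth muscle myosin, Ltbp2 (0.48) and Oxtr (0.47), the oxytocin receptor of myoepithelial cells, of 4365 genes compared over 72 basal cells. For Csf1 they were Urod (0.61), Mcm6 (0.59) and Krt15 (0.56), a keratin of basal epithelia, although on plate B alone the rho with Urod was 0.09. For Il17b they were Gm4963 (0.44), Ggh (0.43) and Cdk2ap1 (0.42, and 0.20 on plate A). For Cxcl12 they were Phc1 (0.41, and 0.07 on plate B), Spen (0.41) and Sbno1 (0.38). For Cxcl16 they were Baiap2 (0.50), Srsf9 (0.50) and Stk39 (0.49), with -0.19 for Baiap2 on plate B. Over the 76 luminal cells and 5960 genes, Cxcl1 lay nearest to Cebpd (0.58), a transcription factor of the acute-phase response, Efna5 (0.55) and Efhd2 (0.52). Cxcl15 lay nearest to Wls (0.57), which carries Wnt ligands to the cell surface, Gpx3 (0.52) and Tomm34 (0.52), and Il33 to S100a6 (0.55), Pdcd5 (0.49) and Ly6d (0.48). The first neighbours of Cxcl1, Cxcl15 and Il33 kept values of 0.55, 0.55 and 0.54 at 50000 reads per cell. The largest falls at that depth were to 0.18 for Spen with Cxcl12, 0.28 for Ggh with Il17b and 0.31 for Oxtr with Cxcl14. Stk39 went to 0.33 with Cxcl16, Pdcd5 to 0.35 with Il33, and Efhd2 and Efna5 to 0.37 and 0.41 with Cxcl1.

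Most receptor genes listed for these ligands were read in few cells, and none is assigned here to Cxcl14 or Cxcl15. The most widely read in basal cells were Ackr3 and Il1rap. At 50000 reads they were found in 21 and 17 of 72 basal cells and in 5 and 7 of 76 luminal cells. Of 13 receptor genes 10 passed the filter, 3 at least 2-fold higher in basal and 2 in luminal cells, with a median log2 ratio of -0.06 beside 0.18 for all genes. Csf1r, which binds Csf1 and Il34, had 116 basal and 33 luminal reads, 96.6% of the basal ones in 1 cell. The other proposed receptors of Il34, Ptprz1 and Sdc1, were read in 15 and 9 basal and in 11 and 10 luminal cells at 50000 reads. Cxcr1 and Cxcr2, the neutrophil receptors for Cxcl1 and Cxcl2, had 1 basal read each, and Cxcr2 1 luminal read. Cxcr6, the receptor of Cxcl16, had 2278 basal reads and 1 luminal read but did not pass the filter on the number of cells, since 99.8% of the basal reads lay in basal cell 29. Cxcr4, the signalling receptor of Cxcl12, stood at 0.749 CPM in the basal and 4.18 CPM in the luminal population. Of its luminal reads 62.5% lay in luminal cell 55, with 18 endothelial and 17 fibroblast markers. Without the cells that carry markers of other types its ratio went from 1.57 to 0.48, under 2-fold. Ackr3, the scavenger receptor of Cxcl12, stood at 122 and 58.5 CPM, with a ratio of -1.05 over all cells and -6.60 without the cells that carry markers of other types. Ackr1, a scavenger of Cxcl1 and Cxcl2 typical of venules, had 171 and 28.2 CPM, but 98.5% of its luminal reads lay in 1 cell and the ratio went from -2.56 to -0.02 without the cells with other markers. For Il17b, Il17rb had 3 basal and 83 luminal reads, 95.2% of the latter in luminal cell 69, and Il17ra stood at 1.52 and 10.6 CPM. For Il33, the specific receptor Il1rl1 had 3 basal and 11 luminal reads, while the shared subunit Il1rap had 42.6 CPM in the basal and 6.36 CPM in the luminal population. Its ratio was -2.57, but -0.04 with plate B alone.

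The wider pathway was described with 6 further lists, in which genes at least 2-fold higher in a population were counted, and genes named for that count alone were named after their values were seen. Together with the receptors, the 7 lists held 66 genes past the filter, 18 higher in basal and 20 in luminal cells. Over all genes the shares were 18.3% and 28.4%, and with so few genes per list the counts were not tested. Of 11 other CXC, CX3C and XC chemokines 6 passed the filter, 1 higher in each direction, with a median ratio of -0.23. Cxcl5 was the basal gene of this list, at 8.78 against 0.0438 CPM, with 65.4% of its basal reads in 1 cell. Cxcl17, a mucosal chemokine, was luminal, with 1 basal read against 4770 luminal reads (41.8 CPM) and a read in 16 luminal cells. Of 18 CC chemokines 6 passed, 4 higher in basal cells (Ccl2, Ccl7, Ccl11 and Ccl27a) and 1 in luminal cells (Ccl9), with a median of -1.24. Ccl2, a monocyte attractant, stood at 445 against 175 CPM, but 65.4% of its basal reads lay in basal cell 72, with 13 endothelial and 6 pericyte markers, and 93.2% of its luminal reads in luminal cell 54, with 17 fibroblast markers. Without the cells that hold markers of other types the ratio of Ccl2 went from -1.34 to -5.47 and that of Ccl7 from -1.13 to -4.76. Of 26 other interleukins 10 passed, 4 higher in basal cells (Il6, Il7, Il11 and Il24) and 4 in luminal cells (Il1rn, Il15, Il16 and Il23a), with a median of -0.31. For Il6 78.1% of the basal reads lay in basal cell 72. Il15, a growth factor of natural killer cells, had 35 basal and 2173 luminal reads, 44.2% of the latter in 1 cell. Il24, a cytokine of the IL-10 family, had 70.1 CPM in the basal and 4.30 CPM in the luminal population, but its ratio went from -3.75 over all cells to 0.90 with plate B alone. Of 20 other cytokines and growth factors of immune cells 14 passed, 2 higher in basal cells (Kitl and Lif) and 5 in luminal cells (Tslp, Tnf, Tnfsf10, Tnfsf11 and Tnfsf13), with a median of 0.24. For Tslp 79.0% of the luminal reads lay in luminal cell 25. Its ratio of 1.85 went to -0.09 without the cells with other markers and to -0.20 with plate B alone. Kitl, the ligand of Kit, was broadly read, in 61 basal and 55 luminal cells at 50000 reads, with a ratio of -1.33. Tnfsf11, the RANK ligand and one of the hormone-sensing markers, stood at 38.8 CPM in luminal and 0.0594 CPM in basal cells.

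All 15 genes of the NF-kB list passed the filter, 3 higher in basal cells (Nfkb1, Icam1 and Cebpb) and 5 in luminal cells (Nfkbia, Nfkbie, Nfkbiz, Tnfaip3 and Zc3h12a), with a median of 0.45. Icam1, an adhesion molecule for leukocytes, had sums of 767 and 89.1 CPM in basal and luminal cells, with a ratio of -3.09 (-2.91 with plate B alone), and was read in 61 of 72 basal and 22 of 76 luminal cells. Cebpb was likewise basal, at 186 against 44.5 CPM, and Zc3h12a, an RNase that degrades cytokine transcripts, was luminal at 11.1 against 2.13 CPM. Of 8 sheddases and processing enzymes 5 passed, 1 higher in basal and 2 in luminal cells, with a median of -0.72. Adam10, which sheds Cxcl16, was higher in luminal cells at 155 against 36.2 CPM, with a read in 48 of 76 luminal and 12 of 72 basal cells. Dpp4, which trims Cxcl12, was luminal at 85.3 against 1.22 CPM with 63.5% of its luminal reads in 1 cell. Mmp2 was basal at 105 against 24.0 CPM, and 74.5% of its luminal reads lay in 1 cell. With plate B alone the median of the 10 genes went from -0.15 to 0.61 and that of the CC chemokines from -1.24 to -3.35, and the median turned positive for the receptors (0.10), the other CXC, CX3C and XC chemokines (0.30), the interleukins (1.43) and the processing enzymes (1.29), and all genes then had a median of 0.48.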

How the data were processed

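The libraries were made with Nextera XT from C1 cDNA and, per the labels, sequenced on an Illumina HiSeq. The authors' methods describe alignment with Subread to mm10 and assignment to RefSeq genes with featureCounts. The version of the tools and the strand setting are not given in the sources used here. The deposited values are whole-number counts per gene and cell with the gene length, not normalized. Since reads carry no molecular identifiers, amplification copies count as reads. A table of the whole series repeated the same counts and was not used.

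Of 27179 identifiers 25275 matched a gene symbol, and the others, with 1.94% of reads, were left out, as were 15 mitochondrial and 124 ribosomal protein genes. Following the study's thresholds, basal cells needed 50000 reads and 1000 genes and luminal cells 100000 reads and 1500 genes, and genes at least 1 CPM in at least 3 cells. CPM were computed from summed counts with exact Poisson intervals, 1 CPM was added before log2 ratios, and shares of cells used cells thinned to 50000 reads with Clopper-Pearson intervals. A gene at 0 was bounded with 3 counts. A call means at least 2-fold, since with 1 sample in each population no test was possible. No doublet caller was run. The paper describes inspection of the captured cells by microscope, and whether cells with markers of other types were doublets was not tested. The ratio step was tested on simulated data. Python 3.11.15, numpy 2.4.6, scipy 1.17.1, pandas 2.3.3 and edgeR 4.0.16 (TMM factors only) were used.

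The genes, lists and cells said to stand apart were chosen with earlier results of these data known. Named besides the 10 genes are all listed receptors. Also named are the 5 pathway genes in each direction with the highest ratio among those at 10 CPM and read in 10% of cells. For each member read in 15 cells, the 3 genes of highest rho are named too. Other genes, such as Cxcl5, Ccl2, Il15, Kitl and those listed for a count, were named after their values were seen. Protein sequences and promoters of Il17b, Cxcl16 and Il34 were not used here. Alternatives covered thresholds, plates, scaling, the added CPM, cell weights, top cells and cells with markers of other types.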

Additional observations from a re-analysis of the deposited data

Results flagged for a closer look

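The cells below the thresholds on reads and genes were used in no comparison. Of the 10 genes, 5 had more than 3 reads, the limit that a count of 0 allows, over the 24 basal cells below the thresholds, and 4 had more over the 14 luminal cells. In the basal cells these were Cxcl14 with 4 reads, Il33 with 4, and Il17b, Cxcl1 and Csf1 with 10 each, of 265874 reads. In the luminal cells they were Cxcl1 with 9, Cxcl12 and Il33 with 6 each and Il17b with 4, of 412543 reads. Il17b thus stood at 9.70 CPM in these luminal and Il33 at 15.0 CPM in these basal cells. In passing cells of the same populations they stood at 1.12 and 1.47 CPM. The other genes named stood lower below the thresholds than in passing cells. No cell below the thresholds held more than 4 reads of a gene.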

How the results depend on the processing

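No ratio of a gene called at least 2-fold changed sign under the 15 alternatives run, 14 of them planned. The count of genes at least 2-fold higher in luminal cells went from 3 to 5 without the cells that hold markers of other cell types, and to 5 over cells thinned to 50000 reads, an alternative added after the data were seen. It kept within 1.5 times under the others, as did the count in basal cells, with 4 or 5 genes, and the counts of pathway genes. Of 140 planned ratios 78 moved beyond the counting interval. The lowest and highest ratios over the alternatives were -7.49 and -3.37 for Cxcl14, -8.04 and -4.23 for Il17b, -8.06 and -0.56 for Cxcl12, -2.59 and -1.68 for Csf1, 5.36 and 8.93 for Il33, 0.50 and 6.85 for Cxcl15, 0.72 and 2.19 for Cxcl2, 0.67 and 1.5 for Cxcl1, -1.33 and 2.67 for Cxcl16, and 0.11 and 1.70 for Il34. The cause was not tested beyond the cells and plates named. Of 200 shares of cells 41 moved beyond their interval, 40 of 57 shares of reads in the top cell did so, 10 of 20 places in the order of levels moved without gene length, and of 120 correlations 20 moved by more than 0.1 and none of those at 0.3 or beyond changed sign over thinned cells or without the top cell. Plates were not among those settings, and Cxcl16 with Baiap2 went from 0.50 to -0.19 on plate B. No paired analysis was possible because the labels pair no basal cell with a luminal one, plate B being shared by whole groups of cells, and no result comes from a test.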
